A study of Rattus norvegicus with 16 samples.

Results

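In oligodendrocytes (OL) on day 3 of differentiation, the binding of serum response factor (SRF) was described from 146 genomic sites. These are the regions where SRF peaks called over input overlapped by at least 1 bp in 2 or 3 of the 3 OL libraries and where no peak of the OL IgG control lay. They were 146 of 454 merged regions with a peak in any OL SRF library, and the study's consensus over its SRF libraries of both stages holds 848 regions. The cells were primary wild-type rat cultures from brain, isolated as oligodendrocyte precursor cells (OPC) by immunopanning, which selects cells on dishes coated with antibodies to their surface proteins. They grew for 6 days in proliferation medium, and the OL plates were then kept in differentiation medium until day 3. The labels name no deletion and no agent beyond the media in any group. The 3 SRF libraries (replicates 1, 2 and 4) come from independent cell preparations, each with its own input. The control is 1 IgG library, whose peaks were called against the input of replicate 1. No RNA was measured in these libraries, so the cell type could not be checked against marker genes.

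SRF is a MADS-box transcription factor that binds as a dimer to the CArG box, a stretch of A and T bases flanked by CC and GG. Cofactors of the ternary complex factor family act with it at immediate early genes downstream of ERK. Myocardin-related factors (MRTF) act with it at actin and contractile genes when free actin monomers run low. Oligodendrocytes rebuild their actin cytoskeleton while they extend and wrap membrane, which is the process the series title names.

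A part of the promoters nearest to the sites held the CArG box or a second, shorter word, and 49 of 88 held neither. The promoters shown here are RefSeq windows of the GRCr8 build that hold a match, written 5′ to 3′ on the gene's strand, with the matched letters in capitals. The first set shows the CArG box at Egr1 (chr18:26736943-26737034, plus strand), Egr2 (chr20:21054485-21054554, minus) and Capn15 (chr10:15503937-15504013, minus), which have a shared site within 1 kb of the transcription start site (TSS). Srf (chr9:21923965-21924054, plus) and Actg1 (chr10:106121002-106121071, minus) are shown beside them because their promoter was called in replicate 1 only. Whether a printed box lies inside the peak was not tested. The box of Actg1 begins at -90 from the TSS with the peak centred 552 bp upstream. That of Capn15 begins at -70 with the peak centred 228 bp upstream.
Egr1: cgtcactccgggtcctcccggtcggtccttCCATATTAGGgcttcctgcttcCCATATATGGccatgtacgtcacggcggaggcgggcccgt
Egr2: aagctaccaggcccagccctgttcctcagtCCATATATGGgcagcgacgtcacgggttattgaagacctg
Capn15: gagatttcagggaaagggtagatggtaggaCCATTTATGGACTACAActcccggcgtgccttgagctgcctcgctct
Srf: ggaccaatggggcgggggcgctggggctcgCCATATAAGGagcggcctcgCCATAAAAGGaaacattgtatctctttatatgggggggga
Actg1: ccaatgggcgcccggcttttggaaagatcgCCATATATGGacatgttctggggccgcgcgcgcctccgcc
The Egr1 and Srf windows each carry a pair of CArG boxes, and in Capn15 the box is followed at once by a 7-letter word, ACTACAA.

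That word, on either strand, recurred in the promoters of shared sites. It is part of a longer sequence known to be bound by the zinc finger factor ZNF143, whose binding was not measured here. The second set shows it at Prcc (chr2:175649673-175649739, minus strand), Bod1 (chr10:16497871-16497937, plus), Dffa (chr5:164823667-164823733, plus) and Ccdc90b (chr1:156045012-156045078, plus), 4 promoters of high fold enrichment with no CArG box in the window.
Prcc: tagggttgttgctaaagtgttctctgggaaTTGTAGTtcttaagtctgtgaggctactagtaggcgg
Bod1: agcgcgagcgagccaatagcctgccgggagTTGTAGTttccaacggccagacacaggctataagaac
Dffa: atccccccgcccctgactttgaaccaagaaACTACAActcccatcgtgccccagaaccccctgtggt
Ccdc90b: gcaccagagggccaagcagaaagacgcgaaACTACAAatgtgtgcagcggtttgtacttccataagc
Prcc and Bod1 have the word on the opposite strand, where it reads TTGTAGT, and of the matches in Prcc the one nearest the TSS is shown.

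The libraries differed in depth and in the number of peaks. Replicate 1 held 12103611 tags and 436 peaks, replicate 4 held 3363937 tags and 172 peaks, and replicate 2 held 2394854 tags and 47 peaks. The IgG library held 1551203 tags and 24 peaks, so the SRF libraries were 7.80, 1.54 and 2.17 times as deep as their control (replicates 1, 2 and 4). A region free of IgG peaks is therefore free of them at the depth of a single shallow library. MACS, the peak caller, estimated a fragment of 73 and 86 bp in replicates 1 and 4, near the read length, and of 296 bp in replicate 2 and 298 bp in IgG. Each peak carries a fold enrichment over its local input background, which is the authors' own value. It depends on depth and fragment estimate, so it ranks peaks within a library and is not compared between libraries.

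The shared sites were mainly promoters. Of 146 sites, 108 had their centre within 1 kb of a TSS (74.0%, exact 95% interval 66.1 to 80.9%), and 86 of these 108 lay upstream of it. The deposited annotation counted 105 of them as promoter sites, 29 as intergenic, 9 as intronic and 3 as exonic, and 19 sites were more than 10 kb from the TSS of the gene they were annotated to. Of these 19, the sites of Desi2, Fbxw11 and Elmsan1 were nevertheless annotated as promoter sites. The sites had a median width of 251 bp, spread over 21 chromosomes, and had a protein-coding gene as the nearest one in 139 cases. Among the 32 sites called in all 3 libraries 20 were within 1 kb of a TSS (62.5%, interval 43.7 to 78.9%), and among the 114 called in 2 libraries 88 were (77.2%, interval 68.4 to 84.5%). The intervals of these sets overlap, and they cover counting error only.

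Regions outside the rule were placed differently. Of the 291 regions called in 1 library without an IgG peak 167 were within 1 kb of a TSS (57.4%, interval 51.5 to 63.1%), and 11 lay at transcript ends, where no shared site lay. Of the 17 SRF regions that overlapped an IgG peak 0 were within 1 kb of a TSS (exact 95% interval up to 19.5%), and all 17 were between genes. Of the 24 IgG peaks themselves 2 were within 1 kb (8.33%, interval 1.03 to 27.0%). No test was made between sets, because the regions of a set share their libraries.

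**Figure D1:**
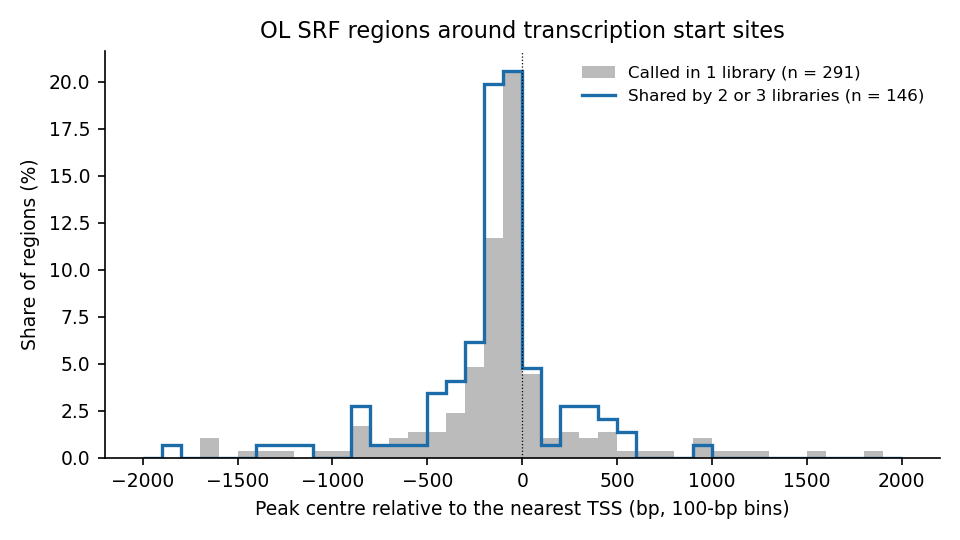
Position of peak centres relative to the nearest TSS (x axis, bp, 100-bp bins) as a share of each set in percent (y axis), for 146 shared sites (blue outline) and 291 regions called in 1 library (grey); regions beyond the axis are not drawn. Both sets peak just upstream of the TSS, and the shared sites have the larger share there, with 74.0% against 57.4% within 1 kb.

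Replicate 1 took part in every shared site. Replicates 1 and 4 alone shared 110 sites, replicates 1 and 2 alone shared 4, and 32 were in all 3. No site was called in replicates 2 and 4 without replicate 1, since each of the 6 regions of that kind had an IgG peak. The shared sites made up 146 of 432 regions of replicate 1 (33.8%), 36 of 47 of replicate 2 (76.6%) and 142 of 166 of replicate 4 (85.5%). The number of shared sites rests on 2 libraries. It was 32 without replicate 1, 36 without replicate 4 and 142 without replicate 2.

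Whether a region of replicate 1 was called again followed its fold enrichment. In the highest quintile (18.9 to 59.3), 80 of 86 regions were also called in replicate 4 (93.0%, exact 95% interval 85.4 to 97.4%) and 27 in replicate 2 (31.4%, interval 21.8 to 42.3%). In the next quintile (11.7 to 18.9) replicate 4 had 36 of 85 (42.4%) and replicate 2 had 6 (7.06%). In the quintile from 8.62 to 11.7 replicate 4 had 18 of 85 (21.2%) and replicate 2 had 1 (1.18%). From 6.59 to 8.62 replicate 4 had 3 of 85 (3.53%) and replicate 2 had 1 (1.18%). In the lowest quintile replicate 4 had 5 of 85 (5.88%) and replicate 2 had 1 (1.18%). The share thus fell steeply from the highest quintile down in both shallower libraries, with no further fall between the 2 lowest quintiles.

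**Figure D2:**
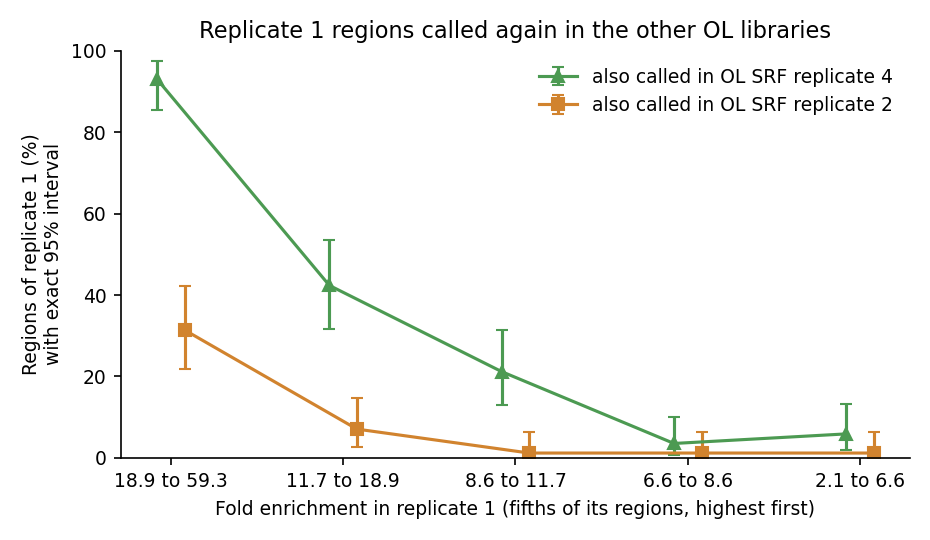
Share of replicate 1 regions that were also called in replicate 4 (triangles) or replicate 2 (squares), in percent with exact 95% intervals (y axis), by quintile of fold enrichment in replicate 1 (x axis, highest first). The share falls from 93.0% to 5.88% for replicate 4 and from 31.4% to 1.18% for replicate 2.

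Reads were above the median of uncalled regions in most places where only replicate 1 had a peak. The deposited counts over the consensus regions were divided by region length and library tags and are given as RPKM, reads per kb of region at a common library size. Over the shared sites the median was 16.0 in replicate 1, 9.89 in replicate 2 and 14.2 in replicate 4. Over the 280 regions called only in replicate 1 it was 10.3, 5.31 and 6.82, and over 399 consensus regions with no OL peak it was 4.30, 2.40 and 3.13. These 399 uncalled regions also have no peak of the OPC IgG control. The consensus is built from SRF peaks of both stages, so they were called in OPC SRF libraries and are no unbound background. Of those 280 regions 213 (76.1%) in replicate 2 and 236 (84.3%) in replicate 4 exceeded that library's median over the uncalled regions. By the definition of a median, about as many uncalled regions lie above it as below it. The sets were formed by calls from the same reads, so the order of shared sites, regions called once and uncalled regions in replicate 1, and of shared sites over regions called only in replicate 1 in the other libraries, is given by the choice. A region called once is therefore not shown to be unbound in the other libraries. The counts are small, with a median of 8 reads per shared site in replicate 2 and 17 in replicate 4. The 280 regions called only in replicate 1 held a median of 3 reads in replicate 2 and 5 in replicate 4. Of them, 36 had no read in replicate 2 and 16 had none in replicate 4.

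**Figure D3:**
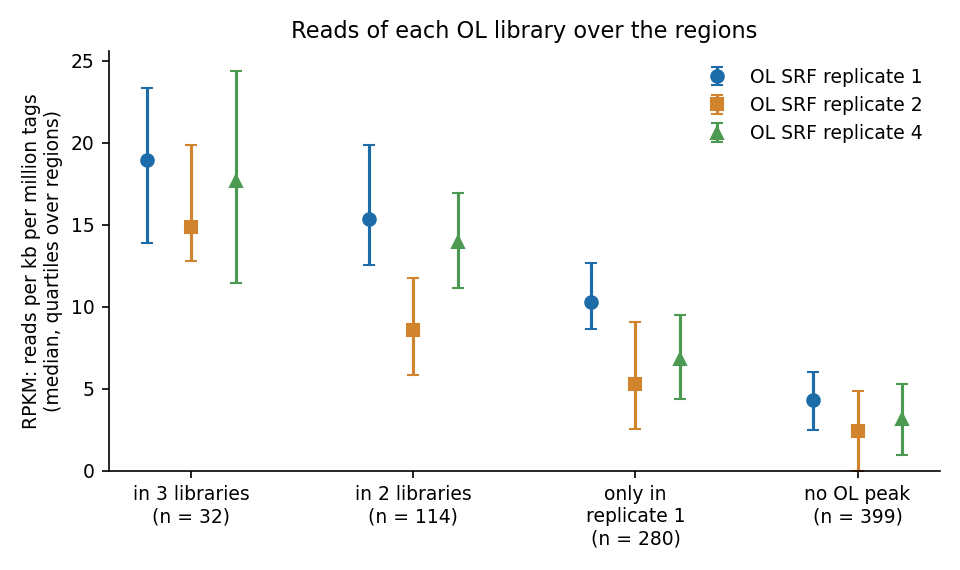
RPKM (y axis, reads per kb scaled to library tags) of each OL SRF library over sites called in 3 libraries, sites called in 2, regions called only in replicate 1 and consensus regions with no OL peak; points are medians and bars are quartiles over regions. In each library the median falls from left to right across the 4 sets, and regions with no OL peak have 4.30, 2.40 and 3.13 in replicates 1, 2 and 4. Those regions also have no peak of the OPC IgG control and were called in OPC SRF libraries.

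Where all 3 libraries had a peak, their fold enrichments were positively correlated. Over the 32 sites Spearman's rho of the fold enrichment was 0.71 between replicates 1 and 2, 0.85 between 1 and 4 and 0.67 between 2 and 4. Over all shared sites called in both libraries of a pair, rho was 0.60 between 1 and 4 (142 sites). Between 1 and 2 it was 0.67 (36 sites). These values describe sites that were selected for a call in every library or in both of a pair, and the points share their libraries. Peak summits lay a median of 21 bp apart between replicates 1 and 4 over 142 sites, 18 bp between 1 and 2 over 36, and 31.5 bp between 2 and 4 over 32. A distance of at most 50 bp was found at 121 of the 142 sites (85.2%), 31 of the 36 (86.1%) and 20 of the 32 (62.5%).

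The site of highest mean rank among those in all 3 libraries was the promoter of Banp, which encodes a DNA-binding protein of CpG-rich promoters. This site (chr19:54765986-54766505 in Rnor_6.0, the build of all peak coordinates, 331 bp upstream of the TSS) had a fold enrichment of 59.3, 18.4 and 29.9 in replicates 1, 2 and 4. It ranked first in replicates 1 and 4 and in place 4 in replicate 2. The promoter of Gsk3a, a glycogen synthase kinase gene (chr1:82108106-82109197, 426 bp upstream), had 32.5, 23.7 and 20.6 and drew the most reads of any shared site in replicate 1, 468. Prcc, whose product is named for a part in mitotic checkpoint control (chr2:187258037-187258606, 183 bp upstream), had 53.2, 13.4 and 20.7. The promoter of Maf1, which encodes a repressor of RNA polymerase III (chr7:117417855-117418256, 423 bp downstream of the TSS), had 59.2, 12.3 and 20.4.

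None of these 4 genes is in the lists of immediate early or cytoskeletal genes used here, nor are the 3 that follow. The F-box gene Fbxl19 (chr1:199194157-199195277, 1371 bp upstream) had 36.7, 14.6 and 11.5 in replicates 1, 2 and 4. Ccdc90b, which encodes a mitochondrial protein (chr1:157403378-157403979, 47 bp downstream), had 34.6, 12.3 and 12.4. At LOC100911959 (chr4:157347152-157347645, 385 bp downstream) the values were 34.3, 10.3 and 14.0. In replicate 1 these sites ranked 6, 10 and 11.

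Among the 12 leading sites in all 3 libraries, those of Zswim6, 5S_rRNA, Fbxl19 and Egr3 were annotated as intergenic. The sites of Zswim6 and 5S_rRNA lay farthest from the TSS of their annotated gene. The site nearest to Zswim6 (chr2:39145661-39146145) was 142362 bp upstream of its TSS, between genes, with 36.7, 16.6 and 20.7 in replicates 1, 2 and 4. It ranked 7, 5 and 5, so it stood with the strongest promoters. The site annotated to a 5S_rRNA gene (chr18:27681940-27682378, 9035 bp upstream) had 28.1, 13.8 and 16.1. It lies on the chromosome of Egr1, with a gap of 24270 bp to the promoter site of that gene, and the annotation by the nearest start does not say which gene it serves. Genes for 5S RNA have near-identical copies, so the name is uncertain.

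**Figure D4:**
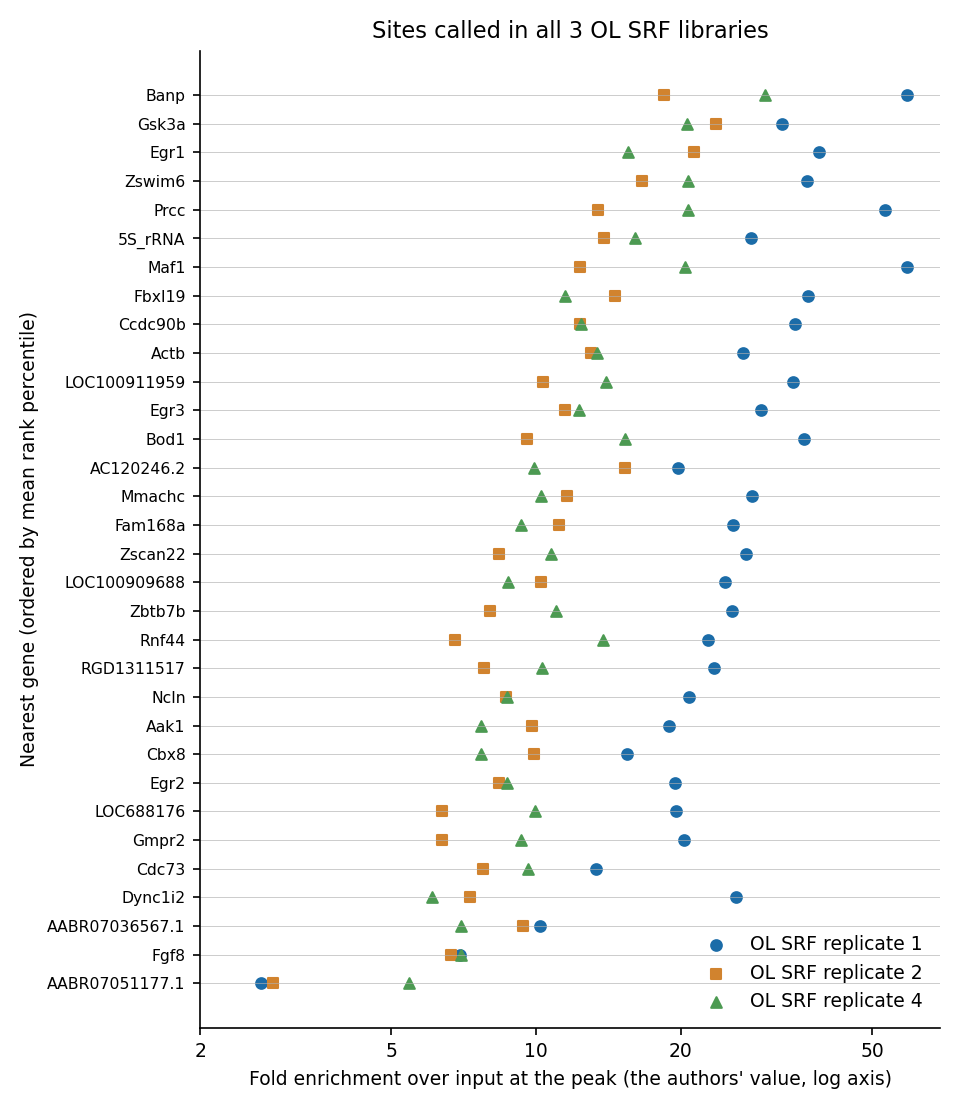
Fold enrichment over input (x axis, log scale, the authors' value) in OL SRF replicates 1 (circles), 2 (squares) and 4 (triangles) at the 32 sites called in all 3 libraries, ordered by mean rank percentile, with the nearest gene on the y axis. Banp leads with 59.3, 18.4 and 29.9, the sites of Egr1, Actb, Egr3 and Egr2 are among the rows, and AABR07051177.1 is lowest with 2.67, 2.84 and 5.43.

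Immediate early genes with a shared site were Egr1, Egr2, Egr3 and Fosb. In the list of immediate early and growth factor genes, 4 of 67 had a shared site within 10 kb of the TSS as the nearest gene (5.97%). The background was 0.232% of all RefSeq genes (110 of 47357) and 0.475% of protein-coding ones. The list was chosen with earlier results of these data known, so its share is a description.

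Egr1, whose zinc finger product is made within minutes of a stimulus, had its site in the promoter (chr18:27656939-27657669, 360 bp upstream). Its fold enrichment was 38.8, 21.3 and 15.5 in replicates 1, 2 and 4, on 223, 58 and 70 reads. Egr3, a relative of Egr1, had its site 2218 bp upstream of the TSS (chr15:51754294-51754747) with 29.3, 11.5 and 12.3. Egr2, which encodes a further EGR factor and is known in Schwann cells as a regulator of peripheral myelin, had a promoter site (chr20:22458787-22459300, 104 bp upstream) with 19.5, 8.37 and 8.68. All 3 EGR sites were called in every library, and within each library Egr1 was the highest and Egr2 the lowest of them. Fosb, an AP-1 subunit (chr1:80221687-80222112, 285 bp upstream), had 12.2 and 9.85 in replicates 1 and 2 and no peak in replicate 4, where 6 reads fell on it.

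Other immediate early genes had a peak in replicate 1 alone. They were Fos, Junb, Egr4, Nr4a1, Arc, Dusp5, Homer1 and Srf, with fold enrichments from 5.70 at Srf to 19.5 at Dusp5. The Dusp5 promoter, whose gene encodes a phosphatase of ERK (74 bp upstream), ranked 80 of 436 there and held 52, 7 and 10 reads in replicates 1, 2 and 4. The Fos promoter (296 bp upstream, fold enrichment 10.1) held 31, 6 and 7 reads. Replicate 4 called other sites on as few reads, such as Wdr1 on 10 and Prkab2 on 5. Why the calls at Dusp5 and Fos were missing was not tested. Btg2, an antiproliferative gene, had a shared site 13240 bp upstream, beyond the 10 kb limit, with 13.7 and 8.56 in replicates 1 and 2.

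Both cytoplasmic actin genes had a shared site. Of 93 genes of the actin cytoskeleton list 3 had a shared site (3.23%), namely Actb, Actg1 and Wdr1. Without replicate 1 or without replicate 4 only Actb kept one. Actb, which encodes beta-actin, carried a site 820 bp upstream (chr12:13715575-13716005) with 27.0, 13.01 and 13.4 in replicates 1, 2 and 4. A second Actb site, centred 98 bp downstream of the TSS (chr12:13716626-13716768), had 16.5 and 12.3 in replicates 1 and 4. Actb and Rnf44 were the genes with 2 shared sites.

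Actg1, the gene of gamma-actin, had its shared site 2257 bp upstream (chr10:109522941-109523194) with 6.12 in replicate 1 and 10.7 in replicate 4. It held 45, 8 and 25 reads in replicates 1, 2 and 4, and ranked 365 in replicate 1 but 42 in replicate 4. The promoter of Actg1, printed above with its CArG box, had a peak in replicate 1 alone, centred 552 bp upstream with a fold enrichment of 8.62. Wdr1, whose product works with cofilin to take actin filaments apart, had a promoter site (chr14:76989677-76989886, 138 bp upstream) with 9.14 and 4.80 in replicates 1 and 4. It was thus among the weaker shared sites, at rank 238 and 162. Capzb (a subunit of the filament capping protein), Cap1 (an actin-binding cyclase-associated protein) and Cnn2 (a calponin) had a promoter peak in replicate 1 alone, at 6.51, 6.59 and 6.57.

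The other lists had no gene with a shared site within 10 kb. These were 40 genes of adhesion and matrix, 18 smooth muscle contractile genes, 16 of SRF and its cofactors, 54 of myelin and oligodendrocyte differentiation, 43 of OPC identity and cell cycle, 28 of cholesterol and lipid synthesis, 37 markers of other brain cell types and 49 of translation and housekeeping. At the background of 0.475% such lists hold fewer than 1 bound gene each, so 0 is not a detectable difference. In all, 7 of 440 matched list genes had a shared site. Vcl (vinculin) and Fermt2 (kindlin-2, an integrin activator) of the adhesion list had a promoter peak in replicate 1 alone, at 4.88 and 5.58. Srf itself (86 bp upstream) had 5.70 in replicate 1, rank 388 of 436, with 30, 9 and 4 reads in replicates 1, 2 and 4.

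The CArG box was rare in the promoters of shared sites. RefSeq windows from 250 bp before to 50 bp after the TSS were found for 89 of the 108 sites within 1 kb, which gave 88 promoters. Actb, Egr3 and Maf1 have none in that table. The box was in 4 of 88 (4.55%, exact 95% interval 1.25 to 11.2%), namely Egr1, Egr2, Capn15 and Gpr108, against 1.62% of 19005 protein-coding promoters. Among promoters of regions called in 1 library it was in 8 of 121 (6.61%, interval 2.90 to 12.6%), those of Dusp5, Irf3, Actg1, Ing2, Fam53c, Rnd3, Cnn2 and Srf. The intervals of shared and 1-library promoters overlap. Where the peak centre lay inside the window, the box was in 2 of 59 shared promoters (3.39%) and 6 of 84 of the 1-library ones (7.14%). The box was searched in its strict form, which reads the same in either direction, and a box elsewhere in a peak would not be found.

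The word ACTACAA was far more frequent. It was found on either strand in 36 of 88 promoters (40.9%, interval 30.5 to 51.9%), against 3.69% of protein-coding and 3.40% of all 27457 promoters. Where the peak centre itself lay inside the window the share was 32 of 59 (54.2%, interval 40.8 to 67.3%), and where it lay outside the share was 4 of 29 (13.8%, interval 3.89 to 31.7%). Among promoters of regions called in 1 library it was 37 of 121 (30.6%, interval 22.5 to 39.6%). With the peak centre inside the window it was 32 of 84 of these (38.1%, interval 27.7 to 49.3%). The word was chosen after these promoters had been seen, so no test goes with it. The match is a description of letters and does not say which protein was there.

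Promoters with the word included some of the highest sites. The 44 matches began 247 to 5 bases before the TSS, with a median of 101, and 28 were on the gene's strand and 16 on the other. They were in Prcc at 53.2 in replicate 1, in Bod1, a gene of chromosome biorientation, at 36.1, in Dffa, which encodes the inhibitor of an apoptotic nuclease, at 36.0 and in Ccdc90b at 34.6. When the promoters of shared and 1-library regions with a peak in replicate 1 were split into 3 groups of nearly equal size by fold enrichment in replicate 1, the word was in 30 of 69 of the highest, 24 of 69 of the middle and 19 of 70 of the lowest. Only Capn15 had both kinds of match, and 49 of the 88 promoters had neither. Among words of 8 letters, counted on both strands, CAACTCCC had the largest excess over protein-coding promoters, with 27 of 88 (30.7%) against 2.08%. It overlaps the end of ACTACAA in the Dffa and Capn15 sequences printed above.

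**Figure D5:**
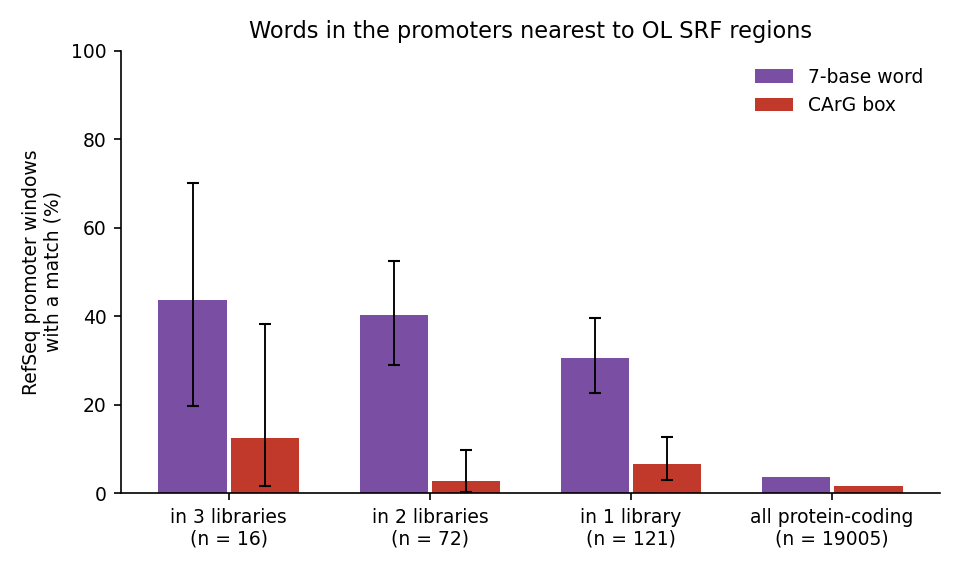
Share of RefSeq promoter windows with the 7-base word (purple) or the CArG box (red), in percent (y axis), for promoters of sites called in 3 libraries, in 2 libraries and in 1 library and for all protein-coding promoters; error bars are exact 95% intervals. The word is in 43.8%, 40.3% and 30.6% of the bound sets against 3.69% of all, and the CArG box in 12.5%, 2.78% and 6.61% against 1.62%.

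Some sites more than 10 kb from the TSS of their annotated gene were called in all 3 libraries. Besides Zswim6 they were those nearest to LOC100909688 (103352 bp upstream, fold enrichment 24.7, 10.2 and 8.74 in replicates 1, 2 and 4), the polycomb gene Cbx8 (12742 bp upstream, 15.5, 9.89 and 7.69), AABR07036567.1 (39338 bp, in an intron), the growth factor gene Fgf8 (29302 bp downstream, 6.94, 6.64 and 6.99) and AABR07051177.1. The sites of Fgf8 and AABR07051177.1 overlapped a peak of the OPC IgG control, which the rule does not use. With sites removed for a peak in either IgG library, 142 shared sites remained, 30 of them in all 3 libraries. AABR07051177.1 is the weakest site inside the rule (chr3:41539-42067), at 2.67, 2.84 and 5.43. Its pileup of 116 reads in replicate 1 is the highest of that library, so a high read depth went with a low enrichment over input.

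The rule counts libraries, so strong regions can lie outside it and weak ones inside. Judged by mean rank percentile, the weakest sites inside, beside AABR07051177.1, were annotated to Fam193a (6.45 and 6.03 in replicates 1 and 4) and Elmsan1 (6.11 and 6.86). Among regions without an IgG peak, the strongest outside were called in replicate 1 alone. They lay in an intron with Cspg4 as the annotated gene (27.6), near AABR07006656.3 (26.8) and near Cwc22 (25.5). Cspg4 encodes the NG2 proteoglycan, a marker of OPC, and its peak lay 30388 bp downstream of the TSS, with 40, 6 and 6 reads in replicates 1, 2 and 4. Over all members the order was the other way, with a median fold enrichment in replicate 1 of 19.5 at shared sites and 8.11 at regions called in replicate 1 alone.

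The control removed 1 of the strongest regions by fold enrichment, while the median of the removed regions was below that of the shared sites. The region nearest to Slc2a2 (chr2:114565301-114565857, 142023 bp from the TSS) had 48.6, 25.1 and 23.6 in replicates 1, 2 and 4 and ranked 4, 1 and 3. The IgG library had a peak there too, with a fold enrichment of 13. Over the regions with an IgG peak the median fold enrichment was 2.83, 5.80 and 5.80 in replicates 1, 2 and 4 (6, 9 and 15 regions), below the shared sites at 19.5, 9.82 and 9.19. The removed region at chr1:180703491-180704004, annotated to Ythdc2, had 9.69 in replicate 4, above the shared-site median there. Apart from the Slc2a2 region, those removed lay on chromosomes 1, 7, 12 and 13, with 9 of the 17 on chromosome 1 and 5 on chromosome 13. Reads over these 17 regions had a median RPKM of 37.8, 82.3 and 66.4 in replicates 1, 2 and 4. This is above the shared sites in all 3 libraries.

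Peaks were also called at the shared sites before differentiation. All 146 overlapped a peak in at least 1 of the OPC SRF libraries, and 129 overlapped one in 4 OPC libraries. Of the 291 regions called in 1 OL library, 230 overlapped an OPC peak, and 72 overlapped one in 4 OPC libraries. Over all 454 OL regions these counts were 391 and 202. Of the 17 regions with an OL IgG peak they were 15 and 1. Overlap with at least 1 OPC library is thus not particular to the shared sites. No difference between the stages was tested, since the libraries differ in depth and overlap with a call says nothing of the level.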

How the data were processed

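ChIP-seq of SRF in OL was analysed from the deposited files of 3 SRF libraries and 1 IgG library. Chromatin was sheared in 7 cycles and sequenced as single 75 bp reads after 12 PCR cycles, per the labels' protocols. Tools listed in the submitters' processing notes are BWA, Trim Galore, HOMER, MACS2 and deepTools, with the build Rnor_6.0. How duplicate reads were handled upstream of the peak caller is not given in the sources used here. The authors ran MACS 2.2.7.1 on every library over input with a q-value limit of 0.05, per the file headers. The deposited tables give each peak's pileup signal, fold enrichment ratio and −log10 of p and q. The deposited counts are whole reads over the authors' 848 consensus regions, made with featureCounts 2.0.1 per the file headers, and are not normalized. The sample whose files are numbered 3 is titled replicate 4 and is called so.

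Peaks of the SRF libraries that overlapped by 1 bp were merged (Python 3.11.15, pandas 2.3.3), a step tested on simulated peaks. A region took its annotation from its peak in the deepest library. Exact binomial intervals are Clopper-Pearson at 95% (scipy 1.17.1) and cover counting error only. Of 144 gene names at sites, 126 (87.5%) matched the RefSeq table of GRCr8. Promoter windows came from that build, and their TSS can differ from that of Rnor_6.0. Whether a match lay inside a peak was not tested, and no sequence of Rnor_6.0 was used here. Each gene took its first listed window.

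Named sites are the 12 of highest mean rank in all 3 libraries, up to 8 genes per list, the top peak of each library, up to 6 sites beyond 10 kb, 3 on each side of the rule and up to 6 regions removed for an IgG peak. Other names were chosen after their values were seen. The members and the 10 lists (447 names) were chosen with earlier results of these data known. Alternatives were overlap, q, fold enrichment, IgG rule, consensus regions, distances and each library left out.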

Additional observations from a re-analysis of the deposited data

How the results depend on the processing

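The number of shared sites depended on the libraries and little on the peak settings. It ranged from 32 (without replicate 1) to 142 (without replicate 2) when 1 library was left out, with 36 without replicate 4, and from 138 to 157 under the alternatives for overlap, q, fold enrichment, IgG rule and consensus regions. The share within 1 kb of a TSS ranged from 62.5% (without replicate 1) to 73.9% (without replicate 2) with a library left out, and was 83.6% within 5 kb. List genes with a shared site numbered 4 to 6 with a library left out, with 4 without replicate 1. The share of promoters with ACTACAA ranged from 41.2% to 43.8% with a library left out, and was 54.2% where the peak centre lay in the window, an alternative chosen after seeing the data. The other results are the counts of the single gene lists. For these, 108 alternatives were counted as unchanged and 2 as moved, the actin list at 1 gene without replicate 1 and without replicate 4. Lists at 0 in the main count stayed at 0 throughout, which alternatives that only remove sites could not change. The fall of the actin list from 3 to 2 genes at q of 0.001 or less was counted as unchanged, so the 108 is no measure of robustness. No value was reversed. No paired analysis was possible because the sites come from no test between groups. Replicates 2 and 4 had fewer tags and fewer peaks than replicate 1, and the part of depth in this was not tested. The IgG control is 1 shallow library.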

Other observations

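The genes named here were chosen after their values were seen, from no fixed list, and are given as single values. Of 51 protein-coding genes whose symbols begin with Mrpl, proteins of the large mitochondrial ribosomal subunit, 4 had a shared site within 10 kb, against 0.475% of protein-coding genes. They were mrpl24 (fold enrichment 20.3 and 12.96 in replicates 1 and 4), Mrpl19 (17.0 and 7.69), Mrpl50 (15.8 and 6.90) and Mrpl34 (13.8 and 8.35). Of 30 genes whose symbols begin with Mrps, the small subunit, 0 had one. Uqcr10, a subunit of respiratory complex III, had 22.3 and 9.09, and Phb, which encodes prohibitin, had 22.2 and 11.8. The spindle checkpoint genes Bub1b and Bub3 had 22.1 and 6.47, and 19.3 and 7.66, while 0 of 43 genes of the OPC identity and cell cycle list had a shared site. Symbols of cytoplasmic ribosomal proteins and their copies begin with Rpl or Rps, letters that other genes can share. Of 188 genes whose symbols begin with Rpl and 116 with Rps, 0 had a shared site. At the background of 0.475%, 0 is not a detectable difference for the Mrps, Rpl or Rps sets.

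Single sites were also annotated to Tf and Eif2b4, while in the list for myelin and differentiation 0 of 54 genes had a shared site within 10 kb. Tf, the gene of transferrin, which oligodendrocytes secrete, had a site in an intron 33788 bp from its TSS, beyond the 10 kb limit, with 10.8 and 7.44 in replicates 1 and 4. Eif2b4, a subunit of the translation factor eIF2B whose human gene is mutated in vanishing white matter disease, had a promoter site with 29.9 and 8.54. The chaperone gene Hsph1 had a promoter site with 33.5 and 27.6 in replicates 1 and 4 (ranks 12 and 2) and no peak in replicate 2.

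The 9 regions called only in replicate 4, without an IgG peak, had many reads and a low fold enrichment. Their median RPKM (reads per kb at a common library size) was 40.7, 100.1 and 100.2 in replicates 1, 2 and 4, above the shared sites in each library. The fold enrichment in replicate 4 was 3.62 to 6.12, with a median of 5.24 against 9.19 at the shared sites. Regions with an IgG peak also had a median RPKM above the shared sites, at 37.8, 82.3 and 66.4. The highest IgG peak had a fold enrichment of 19.5 and lay 20824 bp from the TSS of AABR07045140.1 on chromosome 20, where no OL SRF region overlapped an IgG peak.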
